A study of Homo sapiens with 6 samples.

Results

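AP-1, EGR and immediate early factors are described here through 10 genes, FOS, FOSL1, FOSL2, JUN, JUNB, JUND, EGR1, EGR3, IER2 and IER3. They were taken by symbol from the 60612 genes of the deposited table, and all 10 were found and passed the filter on low counts. RNA was sequenced from U251 cells, a human glioma line of wild-type genotype per the labels, in 2 groups of 3 libraries. The treated cells received 6-shogaol, a pungent compound of dried ginger, for 24 h at a labelled dose of 60 μm, which is read here as micromolar. The control cells were collected at 24 h without 6-shogaol, and no label says whether they received a vehicle. No label says that the replicates came from separate cultures, so the spread between the 3 libraries of a group may be technical. Each edgeR p-value sets the difference against that spread after it is adjusted toward the spread of other genes.

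AP-1 is a transcription factor made of paired proteins of the JUN family with each other or with proteins of the FOS family, and it binds a short palindromic DNA element. EGR proteins are zinc finger transcription factors that bind GC-rich sites. Many genes of both families, and those of the small IER proteins, are immediate early genes, though not every member is. Growth factor and stress signals switch such genes on without new protein synthesis, often through MAP kinases and serum response factor. Their mRNAs are usually short-lived. In glioma cells AP-1 is known for its link to invasion and to growth factor signalling.

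The libraries held between 43516840 and 60018999 counts over genes, with the totals of the 6-shogaol libraries between 43516840 and 55225898 and those of the control libraries between 52132767 and 60018999. On the second principal component of all genes, which carried 20.6% of the variance, the score of 6-shogaol replicate 1 was 61.84, whereas the remaining 5 libraries scored -33.86 to 22.58. The astroglial intermediate filament mRNAs VIM and NES and the glial factor SOX2 were abundant. GFAP, the defining astrocyte filament, was low, at 0.692, 0.616 and 0.684 FPKM (fragments per length and depth) in the 6-shogaol libraries and 2.51, 1.80 and 1.78 FPKM in the control libraries. Among the other astroglial and glioma markers, SOX9, TNC, CD44 and EGFR had group means of 8.49 to 50.15 FPKM. The group means of SLC1A3 and FABP7 were 0.613 to 1.63 FPKM, and those of S100B, AQP4, ALDH1L1 and OLIG2 at most 0.360 FPKM. Of 14 astroglial and glioma markers, 12 were tested and 4 (GFAP, FABP7, TNC and NES) fell with 6-shogaol, against 1.71% of all genes tested. That count was 3 without 6-shogaol replicate 1 and 1 without any other library. Over all genes, 532 of 19953 fell without 6-shogaol replicate 1, and 54 to 96 of 19990 to 20360 fell without any other library. The summed level of the list was 1238 to 1884 FPKM in the 6-shogaol libraries and 1465 to 1489 FPKM in the control libraries. VIM made up most of that sum, at 941, 1012 and 1604 FPKM with 6-shogaol and 1135, 1110 and 1135 FPKM in the control. Of 13 markers of leukocytes, endothelium, epithelium, neurons, oligodendrocytes and mesenchyme, AIF1 and MOG had no count in any library. Of the 9 tested, 0 rose and 2 fell (CDH5 and COL1A1), against 1.67% and 1.71% of all genes tested. The log2 fold changes of CDH5 and COL1A1 were -1.76 and -0.67, with adjusted p of 0.0192 and 0.0387 in edgeR's quasi-likelihood test. The count that fell was 2 without 6-shogaol replicate 1, 1 without 6-shogaol replicate 3 and 0 without any other library. The count that rose was 1 without 6-shogaol replicate 1, where 480 of 19953 genes rose, and 0 without any other library. DESeq2 called 1 of these markers higher and 2 lower, against 5.05% and 5.20% of the genes to which it gave an adjusted p. CD68, a macrophage marker, had a log2 fold change of 0.73 and an adjusted p of 0.117 in edgeR's quasi-likelihood test. All its 6-shogaol libraries lay above the control libraries. The summed level of this list was 25.4 to 29.1 FPKM in the 6-shogaol libraries and 27.3 to 32.1 FPKM in the control libraries. The part of these differences in the results was not tested.

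Of the 10 genes, 3 rose with 6-shogaol (IER3, EGR1 and JUNB), none fell, and 7 did not pass the test. The test was edgeR's quasi-likelihood test on the counts of all 19279 genes that passed the filter, with Benjamini-Hochberg adjusted p under 0.05. Over all genes tested, 1.67% rose and 1.71% fell. The 10 genes were chosen with earlier results of these data known. Their counts beside the shares of all genes are therefore a description and no test of the 10 genes as a set. At an unadjusted p under 0.05, 4 of the 10 genes were higher and 0 were lower, against 10.4% and 9.95% of all genes tested. DESeq2 also called 3 higher and 0 lower, against 5.05% and 5.20% of the 15217 genes to which it gave an adjusted p. Without 6-shogaol replicate 1 the count of members that rose was 3, without control replicate 1 it was 0, and without any other library it was 1. Over all genes, the same fits called 480 of 19953 higher without 6-shogaol replicate 1 and 64 of 20287 without control replicate 1. Without any other library they called 44 to 81 higher, of 19990 to 20360 genes tested. In 5 genes (FOS, JUNB, JUND, EGR1 and IER3) every 6-shogaol library lay above every control library, against 14.0% of all genes tested. In 0 genes did every 6-shogaol library lie below every control library, against 13.9% of all genes tested. The median log2 fold change, 6-shogaol over control, was 0.30 over the 10 genes and -0.0001 over all genes tested. In bulk RNA, fewer cells of a kind and less RNA per cell cannot be told apart.

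**Figure D1:**
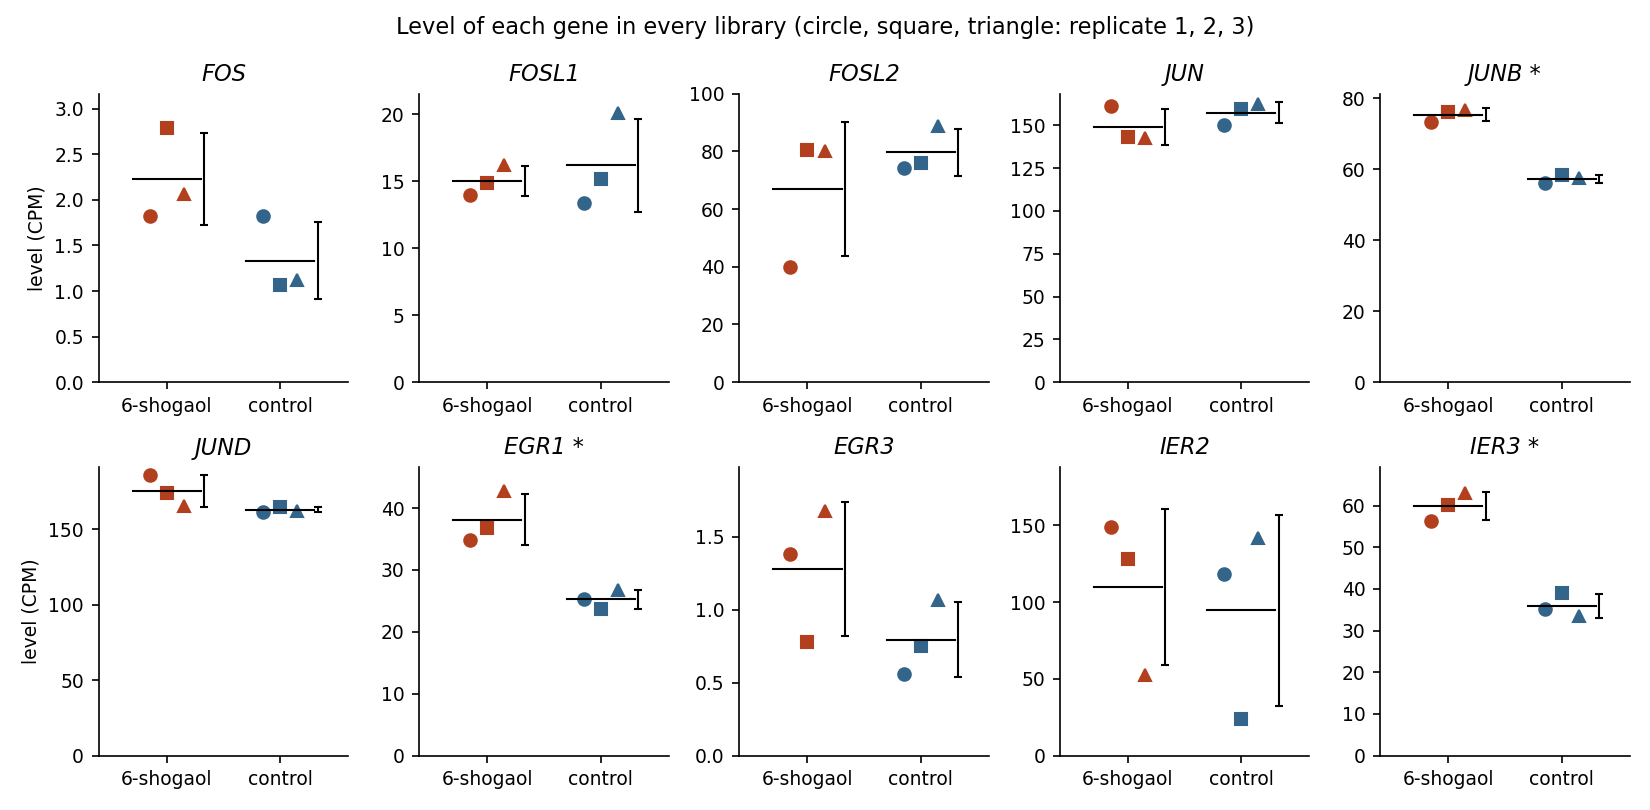
Level of each of the 10 genes in CPM (counts scaled to library size with edgeR's TMM factors), with 6-shogaol libraries left and control libraries right. Points are libraries, horizontal lines are means, vertical bars are 1 SD (n = 3), and an asterisk marks an adjusted p under 0.05 in edgeR's quasi-likelihood test. IER3, EGR1 and JUNB are higher in every 6-shogaol library, and the IER2 libraries run from 52.3 to 149 CPM with 6-shogaol and from 24.1 to 142 CPM in the control.

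The next sequences are DNA from within the 250 bases upstream of the start sites. They were read from RefSeq promoters of build GRCh38.p14, which the table held for 7 of the 10 genes (FOS, FOSL2, JUN, JUNB, JUND, EGR1 and IER2). They are shown so that EGR1 and JUNB, which rose, can be read beside members that did not pass the test. Capitals mark matches to 7 motifs, which were searched on both strands of the 250 bases before the start, numbered with -1 as the last base before the RefSeq start. The motifs were the CArG box of serum response factor, the AP-1 site TGANTCA, the cAMP response element TGACGTCA, its variant TGACGTTT, the AP-1 variant TGACATCA, the EGR site GCGTGGGCG and the TATA box TATAAA.
EGR1 chr5:138465359-138465478 (+ strand): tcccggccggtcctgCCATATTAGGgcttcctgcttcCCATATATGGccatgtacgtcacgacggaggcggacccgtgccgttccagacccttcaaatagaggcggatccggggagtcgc
JUNB chr19:12791366-12791485 (+ strand): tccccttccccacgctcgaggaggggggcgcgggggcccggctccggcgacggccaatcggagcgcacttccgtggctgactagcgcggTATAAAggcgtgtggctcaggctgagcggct
IER2 chr19:13150291-13150410 (+ strand): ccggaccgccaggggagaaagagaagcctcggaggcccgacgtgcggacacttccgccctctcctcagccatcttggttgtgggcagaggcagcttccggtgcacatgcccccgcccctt
FOS chr14:75278753-75278782 (+ strand): ggttgagcccgTGACGTTTacactcattca
JUN chr1:58784096-58784125 (- strand): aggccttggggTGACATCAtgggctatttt
JUND chr19:18281804-18281833 (- strand): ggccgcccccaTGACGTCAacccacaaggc
The EGR1 promoter held 2 CArG boxes, from base -105 to base -96 and from base -83 to base -74. A CArG box stood in 1.16% of the 35116 promoters in the table. JUNB held a TATA box from base -31 to base -26, as FOS did from base -33 to base -28, and 10.7% of promoters held one. FOS also held the variant TGACGTTT (0.419% of promoters), JUN the variant TGACATCA (2.37%) and JUND the cAMP response element TGACGTCA (1.65%). TGANTCA (6.57% of promoters) and GCGTGGGCG (0.72%) were in none of the 7 windows, and none of the 7 motifs was in those of FOSL2 and IER2. A match is a description of the letters in this window and does not show binding. Bases further upstream than 250 were not searched. A window without a match therefore does not show that the gene lacks such an element. Whether the motifs bear on the changes was not tested.

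FOS encodes the founding FOS protein, which pairs with JUN proteins in AP-1. The gene (ENSG00000170345) lies on chromosome 14, 75278826 to 75282230, plus strand. FOS had 1.82, 2.79 and 2.07 CPM in the 6-shogaol libraries, against 1.82, 1.06 and 1.12 CPM in the control libraries. The groups only just did not overlap, since 6-shogaol replicate 1 and control replicate 1 were at almost the same level, and the counts behind these values were 90 to 140 with 6-shogaol and 62 to 94 in the control. The log2 fold change was 0.74 ± 0.31 (SE, n = 3 each), with an interval of 0.02 to 1.46 and an adjusted p of 0.232 in edgeR's quasi-likelihood test. FOS did not pass in any of the 13 alternatives that gave it a test, with adjusted p between 0.186 and 0.494.

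FOSL1 and FOSL2 encode FRA1 and FRA2, FOS-family proteins that lack the strong activation domain of FOS. FOSL1 (ENSG00000175592, chromosome 11, 65892049 to 65900419, minus strand) had 13.9, 14.9 and 16.2 CPM with 6-shogaol and 13.3, 15.2 and 20.1 CPM in the control. The groups overlapped, and the highest value was control replicate 3. The log2 fold change of FOSL1 was -0.11 ± 0.16 (SE, n = 3 each), with an adjusted p of 0.768 in edgeR's quasi-likelihood test, and 0.07 without control replicate 3.

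FOSL2 (ENSG00000075426, chromosome 2, 28392448 to 28417312, plus strand) had 40.0, 80.4 and 80.0 CPM with 6-shogaol, against 74.1, 75.9 and 88.9 CPM in the control. Replicate 1 of the 6-shogaol group was the low library, and the other 5 lay close together. For FOSL2, the log2 fold change was -0.25 ± 0.25 (SE, n = 3 each), with an adjusted p of 0.639 in edgeR's quasi-likelihood test, and 0.01 without 6-shogaol replicate 1.

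JUN encodes the AP-1 subunit that JUN kinases activate, and JUND is the JUN-family protein most often present in resting cells. JUN (ENSG00000177606, chromosome 1, 58780791 to 58784047, minus strand) had 161, 143 and 143 CPM with 6-shogaol and 150.5, 159.6 and 162 CPM in the control. The groups overlapped, and the interval of the log2 fold change, -0.25 to 0.10 around -0.08 ± 0.07 (SE, n = 3 each), does not reach the change of IER3 or EGR1 in size. Its adjusted p in edgeR's quasi-likelihood test was 0.618.

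JUND (ENSG00000130522, chromosome 19, 18279694 to 18281622, minus strand) had 186, 174 and 165.5 CPM with 6-shogaol, against 162, 165 and 162 CPM in the control. The groups did not overlap, by a small margin between 6-shogaol replicate 3 and control replicate 2. For JUND, the log2 fold change was 0.10 ± 0.07 (SE, n = 3 each), with an adjusted p of 0.433 in edgeR's quasi-likelihood test.

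JUNB encodes the JUN-family protein that often restrains JUN. JUNB (ENSG00000171223, chromosome 19, 12791486 to 12793315, plus strand) had 73.2, 76.1 and 76.6 CPM with 6-shogaol, against 56.1, 58.4 and 57.5 CPM in the control. The groups were well apart and the replicates of each lay close together. JUNB rose with a log2 fold change of 0.39 ± 0.06 (SE, n = 3 each), 1.31-fold, with an interval of 0.24 to 0.54 and an adjusted p of 0.0271 in edgeR's quasi-likelihood test. JUNB kept its call without 6-shogaol replicate 1 (adjusted p 0.0273) and lost it without any other library, with adjusted p from 0.0897 to 0.115. Over all 15 alternatives its adjusted p lay between 0.00114 and 0.135.

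EGR1 encodes a zinc finger factor induced by serum response factor. EGR1 (ENSG00000120738, chromosome 5, 138465479 to 138469303, plus strand) had 34.9, 36.8 and 42.8 CPM with 6-shogaol, against 25.3, 23.6 and 26.8 CPM in the control. Every 6-shogaol library lay above every control library. EGR1 rose with a log2 fold change of 0.60 ± 0.10 (SE, n = 3 each), 1.51-fold, with an interval of 0.35 to 0.84 and an adjusted p of 0.0343 in edgeR's quasi-likelihood test. EGR1 kept its call without 6-shogaol replicate 1 (adjusted p 0.0312) and lost it without any other library, with adjusted p from 0.0862 to 0.134. Over all 15 alternatives its adjusted p lay between 0.000327 and 0.134.

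EGR3 encodes a relative of EGR1. EGR3 (ENSG00000179388, chromosome 8, 22687659 to 22693480, minus strand) had 1.38, 0.778 and 1.68 CPM with 6-shogaol, against 0.561, 0.753 and 1.07 CPM in the control. The groups overlapped, and the counts were 29 to 78 in all libraries. The log2 fold change was 0.68 ± 0.40 (SE, n = 3 each), with an interval of -0.26 to 1.62 and an adjusted p of 0.399 in edgeR's quasi-likelihood test. EGR3 overlaps AC055854 on the opposite strand, which had 6 to 36 counts, and without a stated strand the reads cannot be told apart.

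IER3 encodes a short-lived stress-induced protein linked to cell survival. IER3 (ENSG00000137331, chromosome 6, 30743199 to 30744548, minus strand) had 56.3, 60.1 and 63.1 CPM with 6-shogaol, against 35.1, 39.0 and 33.6 CPM in the control. The groups were far apart relative to the spread within each. IER3 rose with a log2 fold change of 0.74 ± 0.09 (SE, n = 3 each), 1.67-fold, with an interval of 0.53 to 0.94 and an adjusted p of 0.0102 in edgeR's quasi-likelihood test. Without control replicate 1 the adjusted p was 0.0552, and over all 15 alternatives it lay between 3.02e-08 and 0.0900. Antisense genes IER3-AS1 and HCG20 overlap it with at most 21 counts, against 1816 or more for IER3.

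IER2 encodes a nuclear protein of growth-factor-stimulated cells. IER2 (ENSG00000160888, chromosome 19, 13150411 to 13154911, plus strand) had 149, 128 and 52.3 CPM with 6-shogaol, against 118, 24.1 and 142 CPM in the control. Each group held a low library (6-shogaol replicate 3 and control replicate 2), and the groups overlapped. The log2 fold change was 0.22 ± 0.63 (SE, n = 3 each), with an interval of -1.27 to 1.71 and an adjusted p of 0.892 in edgeR's quasi-likelihood test. It was -0.07 without 6-shogaol replicate 1 and -0.24 without control replicate 2.

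**Figure D2:**
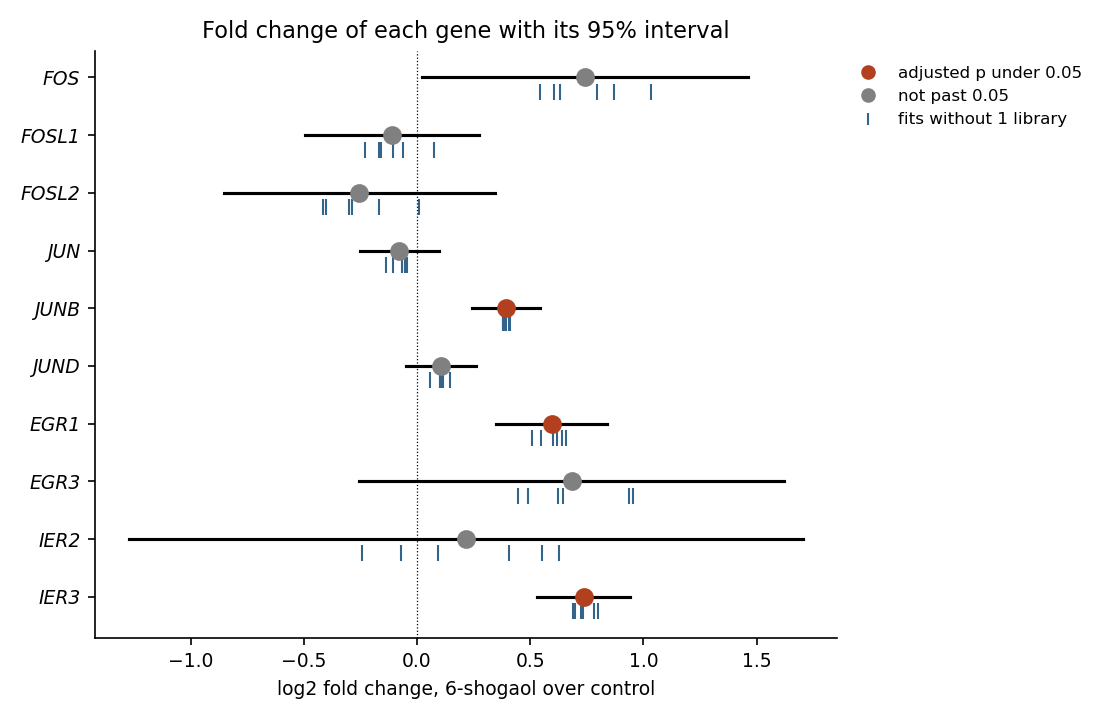
Log2 fold change of each of the 10 genes, 6-shogaol over control, with 95% intervals from edgeR's quasi-likelihood fit. Red points passed an adjusted p under 0.05, grey points did not, and blue ticks are the fits without 1 library. IER3, EGR1 and JUNB lie above 0 with intervals clear of it, that of FOS begins at 0.02, and IER2 and EGR3 have the widest intervals.

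The spread between replicates of the same group also differed between genes. JUNB had a within-group SD of 0.03 on the log2 CPM scale, which 98.6% of the 11722 genes with a mean of 5 CPM or more exceeded. JUN (SD 0.08) and JUND (SD 0.06) were likewise steady, with 78.7% and 89.0% of those genes more variable. IER2 stood at the other end, with a within-group SD of 1.15 that only 0.734% of those genes exceeded. FOSL2 (SD 0.42) was exceeded by 6.57%, and held 1 low library, 6-shogaol replicate 1. EGR1 (SD 0.13) and IER3 (SD 0.10) were in the middle. These percentages are over all genes of 5 CPM or more and were not matched for level.

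**Figure D3:**
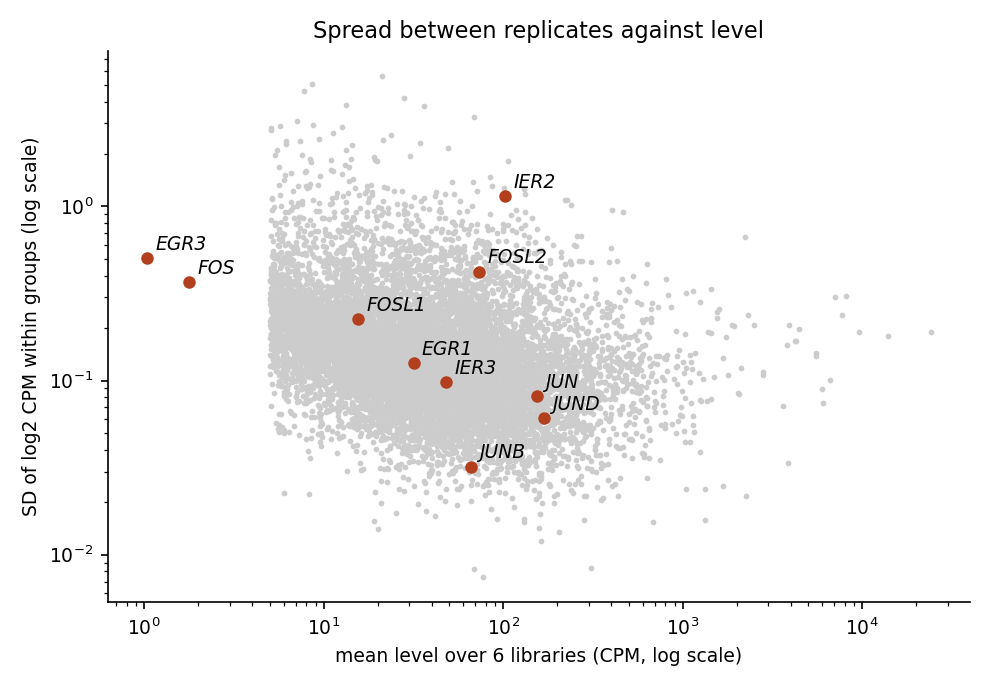
SD of log2 CPM between replicates of a group, pooled over both groups, against the mean level in CPM (both axes on log scales). Grey points are the 11722 genes with a mean of 5 CPM or more, and red points are the 10 genes. IER2 lies near the top of the cloud at its level and JUNB near the bottom.

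Levels were compared between genes on the FPKM scale, which corrects for length. JUND was the most abundant member with 77.5 ± 5.70 FPKM in 6-shogaol cells and 70.9 ± 0.697 FPKM in control cells (SD, n = 3 each). JUN followed in both groups, with 39.1 ± 3.43 FPKM in 6-shogaol cells and 40.6 ± 1.80 FPKM in control cells. FOS and EGR3 were the lowest, with mean levels of 0.578 and 0.215 FPKM in 6-shogaol cells and 0.340 and 0.132 FPKM in control cells. In 6-shogaol cells JUN and IER3 overlapped, and so did JUNB and IER2, and FOSL2 and FOSL1. In control cells JUNB, IER2 and IER3 overlapped neighbour with neighbour, and so did FOSL2, FOSL1 and EGR1. The rank of EGR1 was 6 in 6-shogaol cells and 8 in control cells, and that of IER3 was 3 in 6-shogaol cells and 5 in control cells.

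Shares within a family were tested by a two-sided exact permutation test over libraries, whose smallest possible p with 3 against 3 is 0.1. Of the summed FPKM of FOS, FOSB, FOSL1 and FOSL2, FOS held 3.85%, 4.20% and 3.06% in the 6-shogaol libraries, against 3.01%, 1.66% and 1.45% in the control libraries (exact p = 0.1). The difference was 1.66 percentage points, and every 6-shogaol library lay above every control library. The level of FOS itself was almost the same in 6-shogaol replicate 1 (0.477 FPKM) and control replicate 1 (0.461 FPKM). FOSL2 was low in 6-shogaol replicate 1, at 4.85 FPKM, and the family sum there was the lowest, at 12.4 FPKM. The FOS share of that library therefore depends on the low sum as well as on FOS. FOSL1 and FOSL2 made up most of the family in both groups, with mean shares of 43.8% and 49.3% in 6-shogaol cells and 41.6% and 54.55% in control cells. The summed level was 15.7 ± 2.88 FPKM in 6-shogaol cells and 17.2 ± 2.46 FPKM in control cells (SD, n = 3 each, exact p = 0.6).

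Of the summed FPKM of JUN, JUNB and JUND, JUN held 26.6%, 25.1% and 25.6% with 6-shogaol, against 28.75%, 29.5% and 30.1% in the control (exact p = 0.1). JUNB held 21.5%, 23.7% and 24.4% with 6-shogaol and 19.1%, 19.2% and 19.0% in the control, and JUND averaged 51.1% with 6-shogaol and 51.5% in the control. The differences for JUN and JUNB were -3.70 and 4.10 percentage points, 6-shogaol minus control. The 3 shares add up to the whole, so with a JUND share near level a higher JUNB share leaves a lower JUN share. JUN itself had 39.1 FPKM in 6-shogaol cells and 40.6 FPKM in control cells and did not pass the test, so its share does not show a fall of JUN. The summed level was 152 ± 8.74 FPKM in 6-shogaol cells and 138 ± 3.01 FPKM in control cells (SD, n = 3 each, exact p = 0.1).

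**Figure D4:**
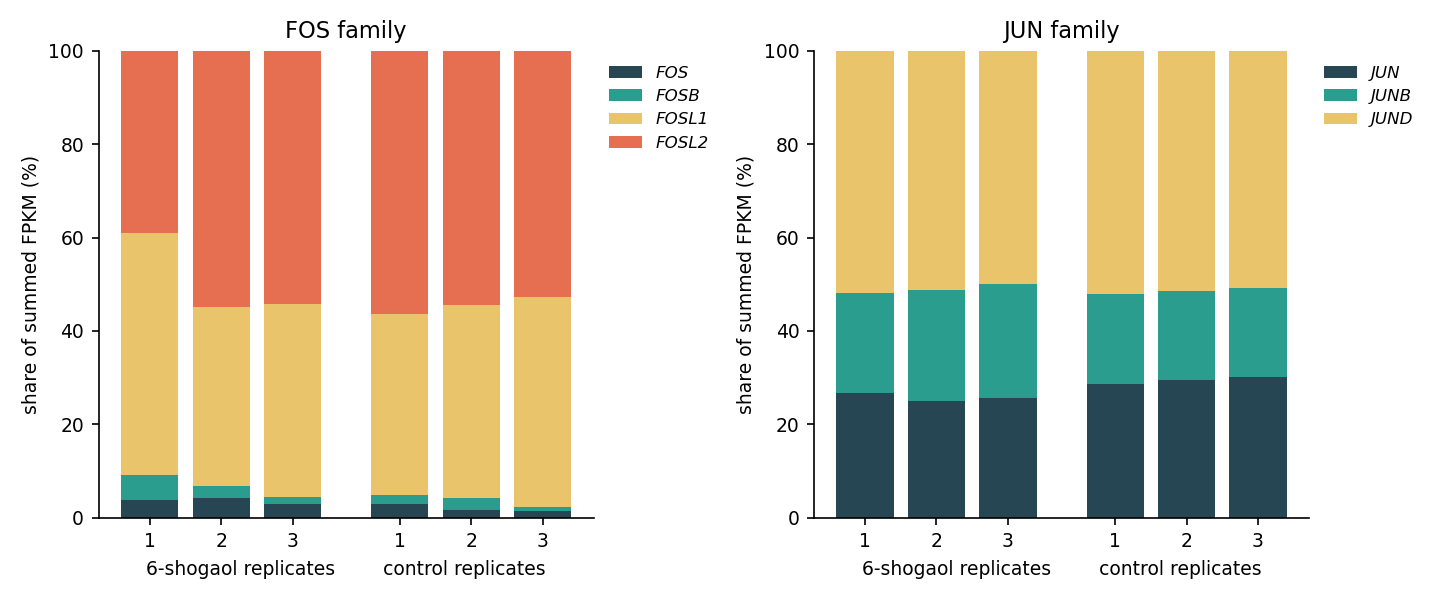
Share of each gene in the summed FPKM of its family, in percent, in each library, 6-shogaol left and control right. The JUN share is lower and the JUNB share higher in every 6-shogaol library, and FOSL1 and FOSL2 make up most of the FOS family in both groups.

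Other genes of the pathway were taken from 8 lists holding 128 genes, of which 120 were tested, 13 rose and 2 fell. The counts that rose and fell, here and in each list, are to be read against 1.67% and 1.71% of all genes tested. The lists were chosen with earlier results of these data known. These comparisons are therefore a description and no test of any list. Counts at an unadjusted p under 0.05 are to be read against the 10.4% of all genes that were higher and 9.95% that were lower. DESeq2's counts are to be read against its 5.05% and 5.20%. Counts without 1 library are to be read against all genes in the same fit. These were 480 of 19953 higher and 532 lower without 6-shogaol replicate 1. Without any other library, 44 to 81 were higher and 54 to 96 lower, of 19990 to 20360 genes tested. Among partners that can pair with FOS or JUN proteins, 0 of 13 tested genes rose and 0 fell, with 2 higher and 2 lower at an unadjusted p under 0.05, and DESeq2 called 1 higher. Their median log2 fold change was 0.19. ATF3, a stress-induced factor that pairs with JUN proteins, had 22.6, 34.8 and 34.9 CPM with 6-shogaol, against 18.1, 15.5 and 17.7 CPM in the control. Its log2 fold change was 0.85 ± 0.18 (SE, n = 3 each) and its adjusted p in edgeR's quasi-likelihood test 0.0545. Without 6-shogaol replicate 1 that p was 0.0136, and without any other library it was 0.142 to 0.183. Over all 15 alternatives it lay between 0.000302 and 0.183. MAFG, a small MAF protein without an activation domain, had 115, 106 and 112 CPM with 6-shogaol and 93.5, 101 and 29.6 CPM in the control, where replicate 3 was the low library. NAB1 and NAB2, which bind and repress EGR proteins, had log2 fold changes of 0.36 and 0.56, both with an adjusted p of 0.112 in edgeR's quasi-likelihood test. In that list of EGR relatives and corepressors, 0 of 3 tested genes rose, 2 were higher at an unadjusted p under 0.05, DESeq2 called 1, and the median log2 fold change was 0.48.

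Of 25 other immediate early genes, 3 rose and 0 fell, and their median log2 fold change was 0.29. At an unadjusted p under 0.05, 11 were higher and 0 lower, and DESeq2 called 8 higher and 0 lower. KLF10, a zinc finger repressor induced by TGF-beta, had 60.6, 66.7 and 64.0 CPM with 6-shogaol, against 38.1, 40.8 and 42.2 CPM in the control (adjusted p = 0.0102 in edgeR's quasi-likelihood test). TRIB1, a pseudokinase that brings targets to a ubiquitin ligase, had 18.6, 21.9 and 22.6 CPM with 6-shogaol, against 10.4, 13.0 and 9.97 CPM in the control (adjusted p = 0.0226 in the same test). CSRNP1, a nuclear protein, had 14.5, 14.6 and 17.4 CPM with 6-shogaol, against 9.29, 10.4 and 8.28 CPM in the control (adjusted p = 0.0376 in the same test). In these 3 genes every 6-shogaol library lay above every control library. MYC, the growth-promoting factor, had 24.8, 26.4 and 21.8 CPM with 6-shogaol and 13.1, 19.2 and 10.9 CPM in the control, with an adjusted p of 0.104 in edgeR's quasi-likelihood test. Without 6-shogaol replicate 1 the list held 4 genes that rose, without control replicate 3 it held 2, and without any other library it held 1. KLF10 lost its call without control replicate 2 (adjusted p 0.0555), TRIB1 without either 6-shogaol replicate 2 or 3 or control replicate 1 or 3 (0.0857 to 0.0977), and CSRNP1 without any library other than 6-shogaol replicate 1 (0.0929 to 0.132).

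Of 27 MAP kinase signalling genes and serum response factor partners, 0 rose and 0 fell, with 6 higher and 3 lower at an unadjusted p under 0.05, while DESeq2 called 2 higher and 2 lower. Their median log2 fold change was 0.03, and BRAF, a kinase that starts the cascade, had 0.53 with an adjusted p of 0.133 in edgeR's quasi-likelihood test. Of 13 feedback genes that switch off MAP kinase signalling, 4 rose and 0 fell, with a median log2 fold change of 0.16. All 4 encode dual-specificity phosphatases, which remove phosphate from MAP kinases. DESeq2 called 4 higher and 0 lower, and 4 were higher and 0 lower at an unadjusted p under 0.05. DUSP5 had 13.2, 12.7 and 12.6 CPM with 6-shogaol, against 6.11, 5.10 and 6.93 CPM in the control, a log2 fold change of 1.08 ± 0.14 (SE, n = 3 each) and an adjusted p of 0.0147 in edgeR's quasi-likelihood test. DUSP6 had 5.75, 7.16 and 6.09 CPM with 6-shogaol, against 3.44, 3.54 and 2.85 CPM in the control. DUSP1 had 35.0, 27.8 and 29.7 CPM with 6-shogaol, against 20.4, 21.6 and 21.2 CPM in the control. In all these genes the 6-shogaol libraries lay above the control libraries. DUSP4, which was named after its values were seen, had a log2 fold change of 0.42 and an adjusted p of 0.0492 in edgeR's quasi-likelihood test. The other dual-specificity phosphatases of the list, DUSP2, DUSP8, DUSP10 and DUSP16, did not pass that test. Their log2 fold changes were -0.09, 0.07, 0.17 and -0.04, with adjusted p from 0.695 to 0.858. The count of feedback genes that rose was 3 without 6-shogaol replicate 1, 1 without control replicate 3, and 0 without any other library.

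Of 22 genes known as AP-1 targets, 18 were tested, 6 rose and 1 fell, with a median log2 fold change of 0.28. At an unadjusted p under 0.05, 9 were higher and 2 lower, and DESeq2 called 6 higher and 1 lower. HMGA1, a chromatin protein, had 193, 189.8 and 190.0 CPM with 6-shogaol, against 123.5, 112 and 109 CPM in the control, with an adjusted p of 0.00635 in edgeR's quasi-likelihood test. It kept its call without any 1 library, with adjusted p from 0.0141 to 0.0449. The secreted factors SPP1 (log2 fold change 0.72), CXCL8 (1.10) and IL11 (0.96) rose as well. SPP1 lost its call without control replicate 1, 2 or 3 (adjusted p 0.0501 to 0.0574), CXCL8 without control replicate 2 or 3 (0.0533 and 0.0546), and IL11 without any library other than 6-shogaol replicate 1 (0.0666 to 0.110). VEGFA, an angiogenic factor, rose with a log2 fold change of 0.64 (adjusted p 0.0126) and PLAU, a plasminogen activator, fell with -0.285 (adjusted p 0.0432), and both were named after their values were seen. Without 6-shogaol replicate 1 the list held 6 genes that rose and 2 that fell, and without any other library it held 3 or 4 that rose and 0 that fell.

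Of 9 tested EGR1 targets, 0 rose and 1 fell, with 3 higher and 1 lower at an unadjusted p under 0.05, and DESeq2 called 1 higher and 1 lower. The median log2 fold change of these genes was 0.19. THBS1, an extracellular matrix protein that restrains angiogenesis, was the gene that fell, with 1199, 1075 and 1128 CPM with 6-shogaol, against 1652, 1759 and 1835 CPM in the control. Its log2 fold change was -0.625 ± 0.07 (SE, n = 3 each) and its adjusted p 0.00828 in edgeR's quasi-likelihood test, and 0.0550 without control replicate 2. PDGFB, a growth factor, had 7.10, 5.72 and 6.75 CPM with 6-shogaol and 4.78, 4.19 and 4.47 CPM in the control, with an adjusted p of 0.101 in edgeR's quasi-likelihood test. Of 12 genes for the turnover of AP-1 proteins and short-lived mRNAs, 0 rose and 0 fell, with 3 higher and 0 lower at an unadjusted p under 0.05, and DESeq2 called none. FBXW7, a ubiquitin ligase subunit that acts on JUN, had a log2 fold change of 0.35 and ZFP36L2, which speeds mRNA decay, 0.28, with adjusted p of 0.240 and 0.162 in edgeR's quasi-likelihood test.

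**Figure D5:**
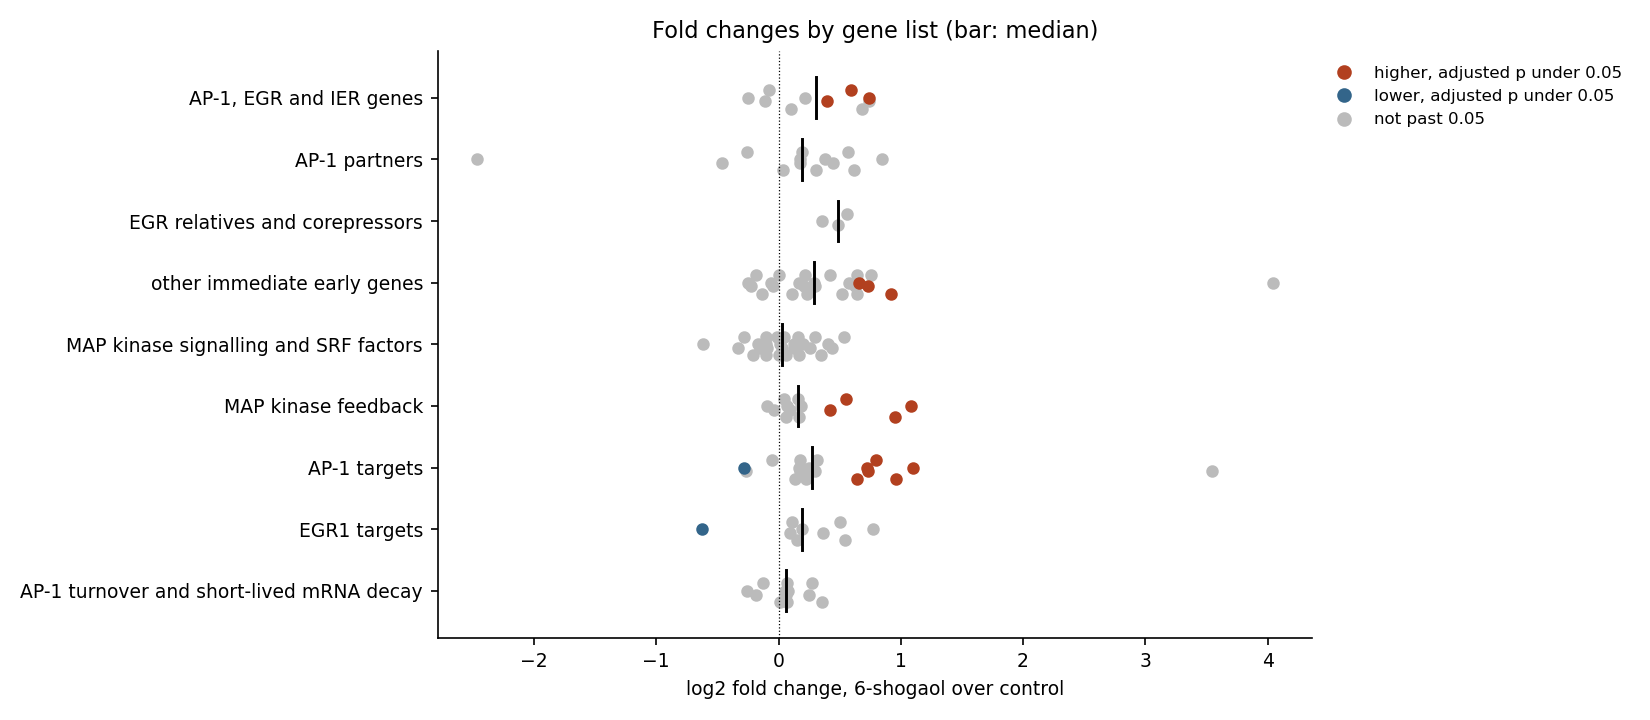
Log2 fold change, 6-shogaol over control, of the tested genes of each list, with the 10 genes in the top line. Red points rose and blue points fell at an adjusted p under 0.05 in edgeR's quasi-likelihood test, grey points did not pass, and black bars are medians, which run from 0.03 to 0.48.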

How the data were processed

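The authors deposited raw counts and FPKM per gene for each library, per the file headers, and which aligner and counter they used is not given in the sources used here. GRCm38 and mm10, both mouse builds, are named per the submitters' processing notes, but the identifiers are human and 99.84% of 58394 deposited intervals overlap the same gene of GENCODE 29 (GRCh38). Libraries were prepared with a SMARTER mRNA-Seq kit, per the labels' protocols, and no strand is stated. Deposited FPKM values of 0.0001 stand for 0 counts and were set to 0 in sums.

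The counts were filtered with filterByExpr, scaled by TMM and tested with edgeR 4.0.16 (R 4.3.3) in a quasi-likelihood fit of all 6 libraries, 6-shogaol over control, with Benjamini-Hochberg adjustment over 19279 genes and a threshold of 0.05. The SE was taken from the log2 fold change and the F statistic, and intervals are 95%. Alternatives used DESeq2 1.42.0, limma 3.58.1 on log2(FPKM + 1) or log2(FPKM + 0.1), other scalings and filters, a replicate block and each library left out. Named genes were the 10 members and, from each list, the called genes (at most 3 with the smallest adjusted p) and the 2 with the largest change at 5 CPM or more. Some genes that this rule names are not reported here. Members and lists were chosen with earlier results of these data known. The fits were tested on simulated counts. Counts of 3 correspond to 0.05 to 0.0689 CPM, and such floors cover counting error only.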

Additional observations from a re-analysis of the deposited data

How the results depend on the processing

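No label says whether same-numbered libraries of the 2 groups were paired. Over all genes, the correlations of same-numbered deviations from the group mean were -0.03, 0.06 and -0.04. Such correlations over all genes cannot show that no libraries shared a batch. With the replicate block the counts were 3 genes higher and 0 lower over all genes, 0 members higher, and 0 pathway genes higher and 0 lower. DESeq2 gave 769 higher and 792 lower over all genes and 23 higher and 4 lower among pathway genes, against 322, 329, 13 and 2 with edgeR. Without a filter the counts over all genes were 183 and 195, and limma on log2(FPKM + 1) without a filter gave 159 and 118, each with 1 pathway gene lower. A filter of 1 CPM in 3 libraries gave 4 pathway genes lower. Leaving out 1 library gave 44 to 480 genes higher and 54 to 532 lower, 0 to 3 members higher, and 4 to 16 pathway genes higher and 0 to 3 lower. A smaller number of libraries is part of each such fit. The number of members called lower was 0 in every alternative run. The FOS share difference lay between 1.37 and 2.15 percentage points and the JUN share difference between -4.14 and -3.36 when 1 library was left out. With 1 library left out, log2 fold changes with a change of sign ran from -0.231 to 0.073 for FOSL1 (highest without control replicate 3), from -0.413 to 0.011 for FOSL2 (highest without 6-shogaol replicate 1), from -0.242 to 0.627 for IER2 (-0.242 without control replicate 2, -0.069 without 6-shogaol replicate 1) and from -0.874 to 0.020 for CREB1 (highest without control replicate 1), and the cause was not tested. Of 566 values of single genes under alternatives, 477 kept direction and side of the threshold, 69 lost the call, 15 gained one and 5 changed sign. FOS and EGR3 had at most 140 counts a library.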

Other observations

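ARC, a neuronal immediate early gene that was picked out after its values were seen, had 4.51, 3.99 and 5.83 CPM in the 6-shogaol libraries, against 0.445, 0.428 and 0 CPM in the control libraries. Its adjusted p was 0.0564 in edgeR's quasi-likelihood test and 0.0160 without control replicate 3, the library with no count, but 0.0841 to 0.162 without any other library. Over its 15 alternatives it lay between 0.00885 and 0.174. BATF2, an AP-1 partner picked in the same way, had 0.0531, 0.120 and 0.253 CPM with 6-shogaol, against 0.967, 0.530 and 0.833 CPM in the control. Its adjusted p was 0.0849 in edgeR's quasi-likelihood test. The counts behind these values were 3, 6 and 11 with 6-shogaol, the lowest at the floor of 3 counts, and 50, 31 and 50 in the control. CREB1, a factor that binds the cAMP response element, had 24.3, 24.4 and 25.2 CPM with 6-shogaol and 64.7, 23.0 and 25.6 CPM in the control, where replicate 1 was the high library.

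Of 11597 genes outside the members and lists, those whose log2 CPM followed the mean of the 10 genes most closely over the 6 libraries included CDK9, DCAF1, JAK1 and SUDS3. Their Pearson correlations were 0.991, 0.987, 0.9845 and 0.984, which describe these libraries, and none of these 4 passed the test for a change with 6-shogaol. IER2, the most variable of the 10 genes, moved that mean: in 6-shogaol replicate 3 the centred mean was 0.16 with IER2 and 0.26 without it, and in control replicate 2 it was -0.35 with IER2 and -0.19 without it.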
